A study of Homo sapiens with 48 samples.

Results

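The 10 genes described here are CERKL, BANK1, EDN2, MGP, CYP4F8, SLC9A2, PLCD4 and TNS4, which were higher under SNX631, and DHRS2 and PROC, which were lower. SNX631 is an inhibitor of the Mediator kinases CDK8 and CDK19, and the genes were selected on the difference between SNX631 and vehicle: each was called, always with the same sign, in the 6 settings in which 22Rv1 prostate cancer cells had an active kinase. They are 10 of 49 genes that met this rule, 34 higher (0.170% of the 20009 genes tested) and 15 lower (0.0750%), together 0.245%, in a count table of 61817 entries. Called means here an adjusted p-value (false discovery rate, FDR) below 0.01 together with a change of more than 1.5-fold, from edgeR's quasi-likelihood test with Benjamini-Hochberg adjustment over all genes tested. The values in those 6 settings are therefore given below as a description, without a test, and the tests are kept for the kinase-dead lines, the medium and the lines themselves.

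CDK8 and CDK19 are closely related kinases that bind cyclin C and form, with it, the kinase module of Mediator, the complex that links transcription factors to RNA polymerase II. They act mainly on genes whose transcription is being turned up or down by a signal, and inhibitors of them raise some transcripts and lower others. In prostate cancer cells CDK19 is the more abundant of the pair.

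The 48 libraries form 16 groups of 3, each from human 22Rv1 cells, a castration-resistant prostate carcinoma line, or from its derivatives. Rv1-WT is 22Rv1 itself and Rv1-Luc a subline transduced with firefly luciferase. Each was cultured with fetal bovine serum (FBS) and with charcoal-stripped serum (CSS), from which androgen has been removed. The 4 dKO lines lack both endogenous kinases and carry 1 kinase from a vector, and they were grown in FBS only: dKO-8 carries wild-type CDK8, dKO-8M kinase-dead CDK8, dKO-19 wild-type CDK19 and dKO-19M kinase-dead CDK19. Each line and medium had libraries after 72 hours of 500 nM SNX631 and of 0.1% DMSO, the vehicle. The kinase-active settings are Rv1-WT and Rv1-Luc in either medium, dKO-8 and dKO-19. Per the methods of the study, dKO-19 and dKO-19M were made from the double knockout and dKO-8 and dKO-8M from a derivative of it with an empty vector, so a line differs from its partner in its vector insertions and its passages as well as in the kinase. The study's methods call the replicates biological, but the labels name no separate cultures, so the p-values measure the spread between these libraries, which may be partly technical.

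Library totals ran from 13231860 to 31496134 counts, with Rv1-WT shallower (at most 18202460) than Rv1-Luc and the dKO lines (at least 19270958). The luminal keratin genes KRT8 and KRT18 were expressed in every library, at 418 to 3410 and 385 to 837 CPM (counts scaled to library size). CDK8 RNA was higher in dKO-8 (mean 68.7 CPM) and dKO-8M (123) than in Rv1-WT (26.8), and CDK19 RNA higher in dKO-19 (510) and dKO-19M (332) than in Rv1-WT (149), under vehicle in FBS. Transcripts of the knocked-out genes were still counted (CDK8 at 27.7 CPM in dKO-19), so these counts show the added kinase but do not check the knockout. The first dKO-19M vehicle library stood apart, since the chi-square between its counts and those of its replicates was 17.1 and 17.7 times the degrees of freedom, where the other pairs had 1.28 to 9.71 times. The highest of those others was the pair of the first and second Rv1-Luc vehicle libraries in FBS. Results that rest on the first dKO-19M vehicle library are given with and without it.

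The genes fall into 3 kinds by the roles of their proteins. EDN2 (ENSG00000127129.10), MGP (ENSG00000111341.10) and PROC (ENSG00000115718.18) encode secreted proteins: endothelin 2, a vasoconstrictor peptide that acts on G protein-coupled receptors, matrix Gla protein, an inhibitor of calcification, and protein C, the zymogen of an anticoagulant protease made mainly in the liver. MGP and protein C are both vitamin K-dependent proteins, in which glutamate residues are carboxylated. CYP4F8 (ENSG00000186526.13), CERKL (ENSG00000188452.15), PLCD4 (ENSG00000115556.14) and DHRS2 (ENSG00000100867.15) encode a cytochrome P450 that hydroxylates prostaglandins and fatty acids in the seminal vesicle and prostate, a protein related in sequence to ceramide kinase, a phospholipase C of the delta class, and a short-chain dehydrogenase/reductase. BANK1 (ENSG00000153064.12), TNS4 (ENSG00000131746.13) and SLC9A2 (ENSG00000115616.3) encode a scaffold protein of B cell receptor signalling, a tensin of focal adhesions, and a sodium-proton exchanger of the plasma membrane.

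In GRCh38 with the GENCODE annotation, 4 of the 10 genes lie on chromosome 2: CERKL at chr2:181536676-181680665 on the minus strand, SLC9A2 at chr2:102619707-102711318, PLCD4 at chr2:218607765-218637184 and PROC at chr2:127418427-127429246, the last 3 on the plus strand. EDN2 is at chr1:41478775-41484673 (minus), BANK1 at chr4:101411286-102074812 (plus), MGP at chr12:14881181-14885926 (minus), DHRS2 at chr14:23630115-23645639 (plus), TNS4 at chr17:40475828-40501597 (minus) and CYP4F8 at chr19:15615218-15630638 (plus). All are protein-coding. The span annotated to CERKL contains NEUROD1 on the same strand and that of BANK1 contains 2 small non-coding entries, MTND5P5 and RNU6-462P. Reads in these overlaps could be assigned to either gene. CYP4F8 lies 10259 bases from CYP4F3, a member of the same family, and its counts held a fraction, the mark of a read divided between places, in 6.25% of libraries (PLCD4 in 4.17%, the other 8 genes in none).

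The sequence before the start sites of the genes was searched for short motifs on both strands. The RefSeq windows on GRCh38.p14 run from 250 bases before a start to 50 after it. Windows were given for 7 of the 10 genes (9 windows); MGP, PLCD4 and TNS4 had none. The 250 upstream bases of 4 genes are printed 5′ to 3′ on the gene's strand, with motif letters in capitals: the pair that were raised with no motif in the window (CERKL and EDN2), the raised gene with the most kinds of match (CYP4F8), and the lowered gene with the largest mean difference (DHRS2).
CERKL, chr2:181657106-181657355, minus strand: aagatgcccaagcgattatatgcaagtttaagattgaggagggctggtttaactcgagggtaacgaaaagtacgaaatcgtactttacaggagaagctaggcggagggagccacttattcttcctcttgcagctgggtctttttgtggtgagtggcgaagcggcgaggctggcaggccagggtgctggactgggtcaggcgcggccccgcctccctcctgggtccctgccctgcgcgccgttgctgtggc
EDN2, chr1:41484684-41484933, minus strand: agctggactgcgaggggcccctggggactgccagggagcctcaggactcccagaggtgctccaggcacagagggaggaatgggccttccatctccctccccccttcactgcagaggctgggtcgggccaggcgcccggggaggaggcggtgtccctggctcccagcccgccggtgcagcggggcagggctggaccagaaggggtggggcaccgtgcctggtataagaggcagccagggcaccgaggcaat
CYP4F8, chr19:15614968-15615217, plus strand: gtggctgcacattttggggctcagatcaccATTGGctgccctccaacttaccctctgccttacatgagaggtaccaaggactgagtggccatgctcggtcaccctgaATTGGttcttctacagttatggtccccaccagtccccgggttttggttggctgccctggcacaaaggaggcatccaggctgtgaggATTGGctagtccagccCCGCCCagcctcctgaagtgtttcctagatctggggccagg
DHRS2, chr14:23629865-23630114, plus strand: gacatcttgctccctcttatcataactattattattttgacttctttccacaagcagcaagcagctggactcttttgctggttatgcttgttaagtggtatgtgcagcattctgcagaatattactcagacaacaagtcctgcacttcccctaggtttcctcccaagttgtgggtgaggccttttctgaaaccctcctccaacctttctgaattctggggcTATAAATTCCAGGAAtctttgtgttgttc

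In the DHRS2 window a TATA box (TATAAA) began 29 bases before the start and was followed at once by a STAT site (TTCNNNGAA) from base 23. TATA boxes were found in 11.5% and STAT sites in 7.66% of 35116 windows of all genes. The CYP4F8 window held 3 CCAAT boxes (CCAAT, read as ATTGG on the printed strand; 34.6% of windows) and a GC box (GGGCGG, read as CCGCCC; 45.0% of windows). GC boxes were also found in SLC9A2, a CCAAT box in PROC, and a FOXA site (TGTTTAC, 3.42%) in BANK1. No motif given here occurred in more than 2 of the 7 genes. The AP-1 (TGANTCA), TCF (CTTTGAT), ATF4 composite (TGATGNAAT), CRE (TGACGTCA) and NF-kB motifs were in none of the 9 windows, against 7.71%, 2.62%, 0.991%, 1.85% and 0.191% of all windows. A match is only a run of letters, and its absence says nothing of the factor.

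The genes ranged from barely to moderately expressed. Per kilobase of exon, EDN2 (6.98 CPM per kb) and DHRS2 (7.05) were the most abundant in Rv1-WT under vehicle in FBS, and BANK1 (0.0722), CYP4F8 (0.0833), CERKL (0.111) and PLCD4 (0.169) the least. Those 4 rested on 5 to 21 counts per library in that group. The order differed by line, for the level of MGP per kilobase was 0.428 in Rv1-WT and 5.23 in dKO-8, and that of CYP4F8 0.0833 and 1.23. No group had all 3 libraries at or under 3 counts for any of the 10 genes.

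**Figure D1:**
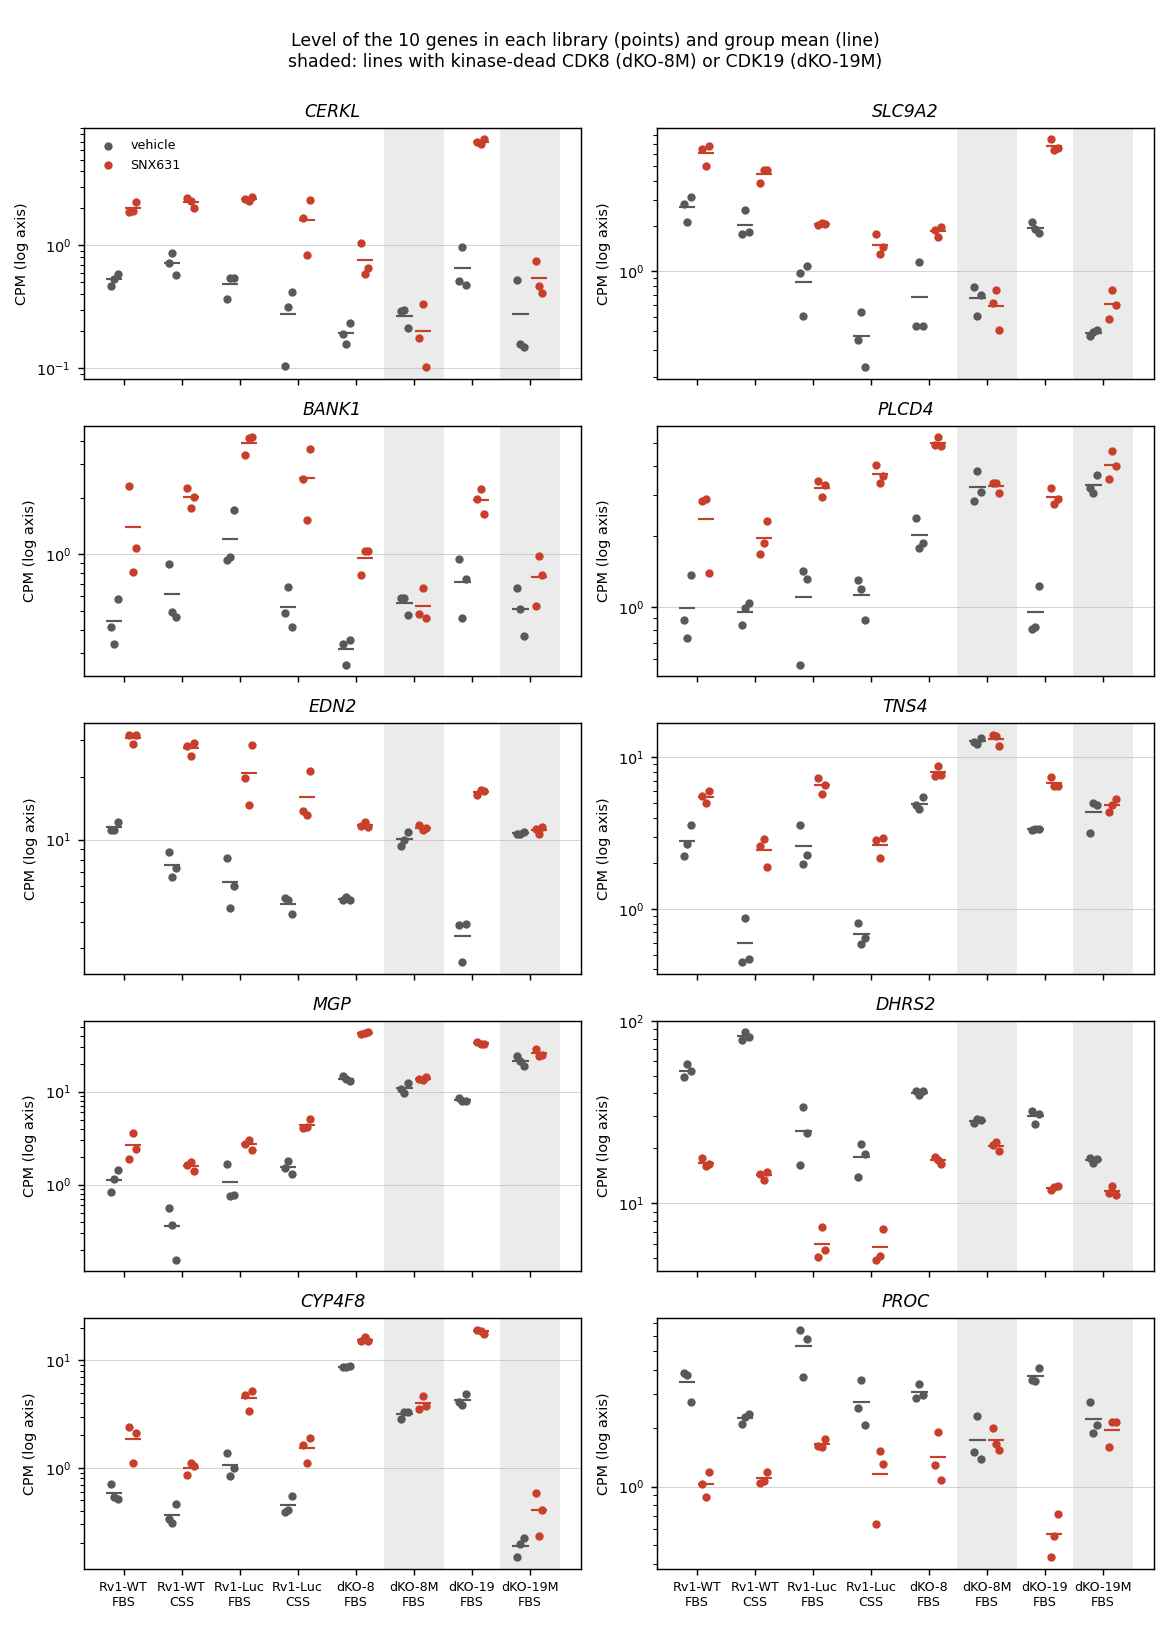
Level of each of the 10 genes (CPM, log axis) in the 48 libraries, by line and medium, with vehicle in grey and SNX631 in red; points are libraries and lines group means. In the 6 unshaded settings the 3 SNX631 libraries lie wholly above (8 genes) or below (DHRS2 and PROC) the 3 vehicle libraries, whereas in the shaded kinase-dead lines the colours mostly lie side by side.

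Among the genes of secreted proteins, EDN2 was the most abundant in the Rv1 lines. In bulk cultures a change in RNA per cell and a change in the share of cells that carry the RNA cannot be told apart. In Rv1-WT in FBS its level was 11.1, 11.1 and 12.1 CPM under vehicle and 31.7, 28.8 and 32.0 CPM under SNX631, and in dKO-19 it was 3.86, 2.57 and 3.93 against 16.4, 17.4 and 17.1 CPM. The groups lay well apart in both lines, and the lowest vehicle level belonged to dKO-19. Over the 6 settings the log2 difference of SNX631 from vehicle was 1.18 (dKO-8) to 2.28 (dKO-19). MGP was a low transcript in the Rv1 lines and an abundant one in the dKO lines: in dKO-8 the libraries had 14.6, 13.8 and 13.02 CPM under vehicle and 42.1, 43.2 and 43.7 CPM under SNX631, whereas in Rv1-WT in CSS they had 0.556, 0.372 and 0.155 against 1.62, 1.76 and 1.41 CPM. The log2 difference of MGP was similar at either level, 1.64 in dKO-8 and 2.15 in Rv1-WT in CSS, with 1.197 in Rv1-WT in FBS as its lowest. PROC was the only secreted-protein gene of the set that fell. In dKO-19 its level was 3.53, 3.49 and 4.10 CPM under vehicle and 0.431, 0.558 and 0.718 CPM under SNX631, a log2 difference of -2.71 and the largest fall of either lowered gene in any setting. Its other 5 differences were -1.72 to -1.04.

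The 2 vitamin K-dependent genes thus moved in opposite directions, MGP up and PROC down. The 9 other tested genes on a list of vitamin K-dependent proteins and carboxylation enzymes had a median log2 difference of -0.12 to 0.06 in the 6 settings, beside a median over all genes within 0.01 of 0. PROC is a liver gene. The summed level of a hepatocyte list (ALB, APOA1, TTR, FGB and APOH, 3 of 5 tested) was also lower under SNX631 in the Rv1 lines. In Rv1-WT it was 540 to 569 CPM under vehicle and 204 to 209 CPM under SNX631 in FBS, and 458 to 481 and 174 to 182 in CSS. In Rv1-Luc it was 53.6 to 71.9 and 17.2 to 22.3 in FBS, and 68.4 to 71.9 and 18.2 to 26.7 in CSS. ALB made up nearly all of this sum, so the fall is that of ALB rather than of the list as a whole. Under vehicle in FBS the sum was lower in Rv1-Luc than in Rv1-WT, whereas the PROC mean was higher, 5.31 against 3.45 CPM. In the dKO lines the same sum was at most 4.05 CPM, while PROC had vehicle means of 3.09 CPM in dKO-8 and 3.71 CPM in dKO-19, against 3.45 CPM in Rv1-WT in FBS, and was lower under SNX631 in both. The part of this list in the PROC values was not tested.

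Of the enzyme genes, CERKL had the largest rise. Its level in dKO-19 was 0.518, 0.976 and 0.480 CPM under vehicle and 6.89, 6.65 and 7.28 CPM under SNX631, a log2 difference of 3.41, and in Rv1-WT in FBS it was 0.470, 0.536 and 0.584 against 1.87, 1.92 and 2.27 CPM, a difference of 1.93. The mean of that group was 6.94 CPM, and the next highest group mean of CERKL was 2.38 CPM, in Rv1-Luc in FBS under SNX631. CYP4F8 rose least in dKO-8, where it started highest: 8.59, 8.71 and 8.79 CPM under vehicle and 14.98, 16.3 and 14.9 CPM under SNX631 (log2 difference 0.83). In dKO-19 it went from 4.05, 3.80 and 4.85 CPM to 19.2, 18.8 and 17.4 CPM (2.12). PLCD4 had the most even differences, 1.04 to 1.69 over the 6 settings.

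DHRS2 was the most abundant of the 10 genes by count and fell in all 6 settings. Its level in Rv1-WT in CSS was 78.3, 86.8 and 81.9 CPM under vehicle and 14.4, 13.4 and 14.8 CPM under SNX631, a log2 difference of -2.53. The vehicle level of this gene varied widely between the lines and media, from 17.2 to 82.4 CPM as group means, and the 6 kinase-active SNX631 means lay between 5.76 and 17.2 CPM. In Rv1-Luc in FBS the 3 vehicle libraries themselves ranged from 16.3 to 33.7 CPM, the widest spread for DHRS2, and the difference was -2.03.

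The scaffold, adhesion and transport genes rose as well, TNS4 the least of the 3 in dKO-8 (0.68, where BANK1 had 1.55 and SLC9A2 1.51). BANK1 levels in Rv1-Luc in FBS were 0.931, 0.964 and 1.73 CPM under vehicle and 3.34, 4.13 and 4.18 CPM under SNX631, the highest of the series, and its log2 differences were 1.43 (dKO-19) to 2.26 (Rv1-Luc in CSS). SLC9A2 was highest in dKO-19 under SNX631, at 7.51, 6.35 and 6.56 CPM against 2.12, 1.90 and 1.79 CPM under vehicle, and its differences were 1.13 to 1.99. TNS4 showed the greatest contrast between media: its difference was 0.98 in Rv1-WT in FBS, from 2.23, 2.68 and 3.57 CPM to 5.55, 5.02 and 5.99 CPM, and 2.07 in CSS, from 0.445, 0.868 and 0.466 CPM to 2.60, 2.88 and 1.90 CPM. Its vehicle level in CSS was the lower, and so was its SNX631 level.

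**Figure D2:**
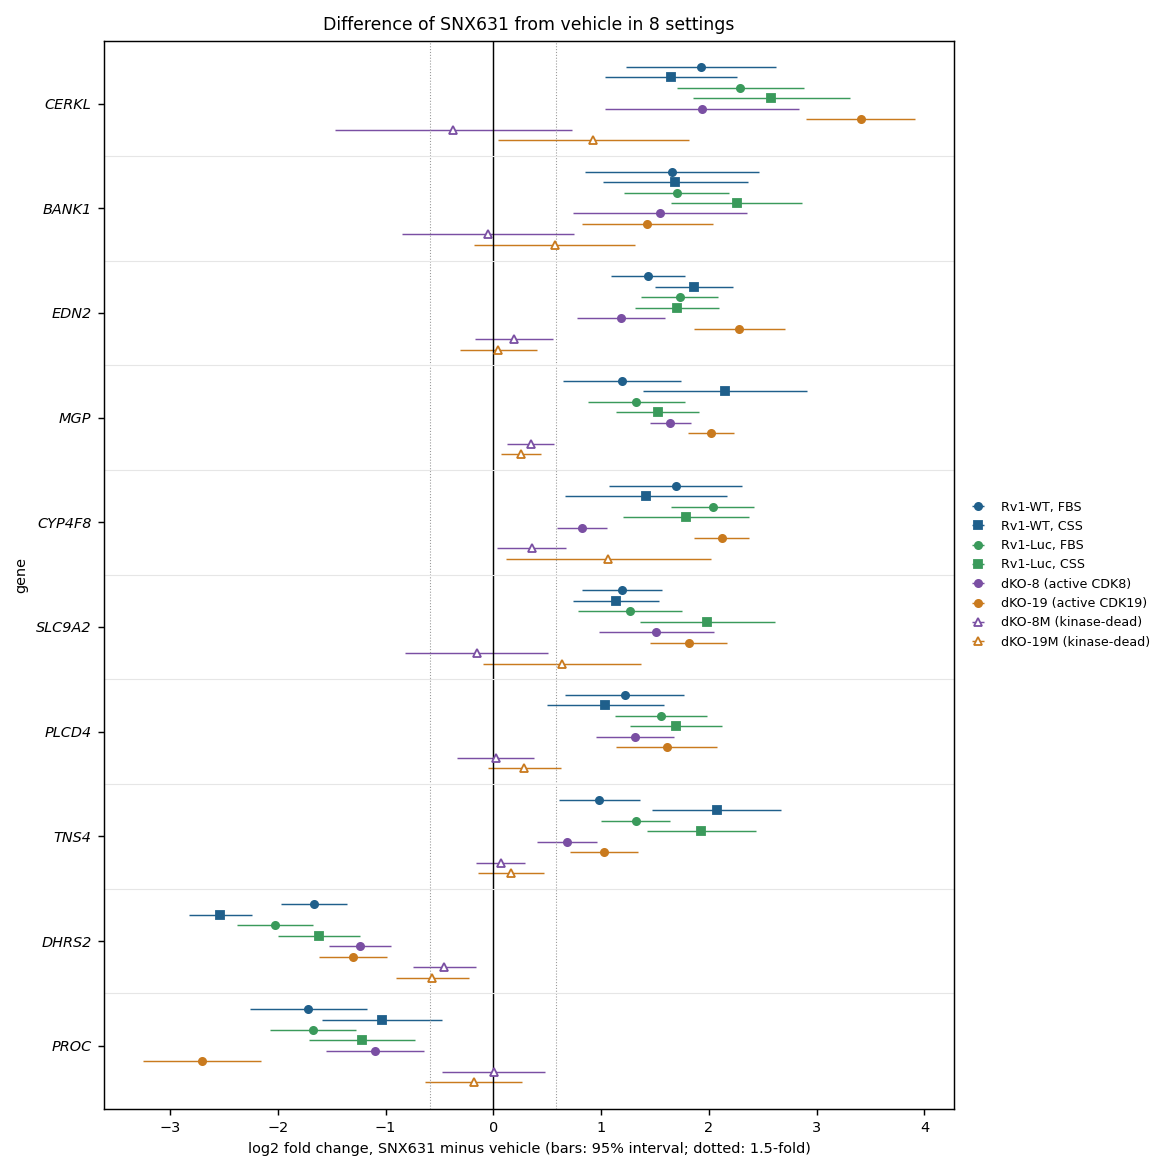
Log2 fold change of SNX631 against vehicle for each gene in 8 settings, with 95% intervals and dotted lines at 1.5-fold; filled symbols are the 6 kinase-active settings that chose the genes and open triangles the kinase-dead lines. The filled symbols lie between 0.68 and 3.41 for the 8 raised genes and between -2.71 and -1.04 for DHRS2 and PROC, and the triangles between -0.57 and 1.07.

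Over all genes, the share called under SNX631 was 2.39% in Rv1-WT in FBS, 4.23% in Rv1-WT in CSS, 3.67% in Rv1-Luc in FBS, 4.06% in Rv1-Luc in CSS, 1.71% in dKO-8 and 3.41% in dKO-19, where all 10 genes were called by the rule. The 3 SNX631 libraries did not overlap the 3 vehicle libraries for 30.1%, 38.0%, 29.9%, 35.4%, 35.4% and 37.6% of all genes in the same order, and for all 10 of these. Nothing is read from the counts of the 10, since the rule fixed them. Ranked by the mean log2 difference over the 6 settings, CERKL had rank 2 (2.30), BANK1 rank 5 (1.71), EDN2 rank 6 (1.70), CYP4F8 rank 7 (1.65), MGP rank 8 (1.64), SLC9A2 rank 11 (1.48), PLCD4 rank 12 (1.40) and TNS4 rank 13 (1.34) of the 34 raised genes. DHRS2 was the first (-1.73) and PROC the fourth (-1.57) of the 15 lowered genes. The member values nearest the fold limit of 1.5 were 0.68 for TNS4 and 0.83 for CYP4F8, both in dKO-8. Just outside it lay ASNS in Rv1-WT in FBS (-0.58) and TXNIP in Rv1-Luc in FBS (-0.58), which were called in the other 5 settings.

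The kinase-dead lines give a test that the rule did not use: the same drug, dose and time in cells whose CDK8 or CDK19 has no kinase activity. In dKO-8M, 0 of the 10 genes were called, beside 3 of 20009 genes (0.0150%), and in dKO-19M 0 of 10, beside 18 genes (0.0900%), by edgeR at FDR under 0.01 and over 1.5-fold. At an unadjusted p under 0.05, 3 of the 10 passed for the CDK8 mutant, beside 1910 of the 20009 genes, and 4 for the CDK19 mutant, beside 2951, and DESeq2 also called 0 in each line. EDN2 levels in dKO-8M were 9.32, 9.98 and 10.9 CPM under vehicle and 11.8, 11.1 and 11.3 CPM under SNX631. The libraries did not overlap, though the highest vehicle and the lowest SNX631 library were close, and the log2 difference was 0.19 (95% interval -0.17 to 0.56), where dKO-8 had 1.18. In dKO-19M EDN2 stood at 10.7, 10.7 and 10.9 CPM against 11.2, 10.6 and 11.5 CPM, a difference of 0.05 (-0.31 to 0.40), where dKO-19 had 2.28.

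PROC did not differ beyond the spread of its libraries in either kinase-dead line. In dKO-8M it had 1.50, 2.33 and 1.39 CPM under vehicle and 2.02, 1.66 and 1.54 CPM under SNX631, a log2 difference of 0.00 (95% interval -0.48 to 0.48), and in dKO-19M the difference was -0.18 (-0.63 to 0.27), where dKO-19 had -2.71. TNS4 (0.07 and 0.16) and PLCD4 (0.02 and 0.29) likewise had small values in the CDK8 and the CDK19 mutant line, with intervals that reached 0.63 at most. The drug effects of the kinase-dead and active lines were not tested against each other, since those of the active lines chose the genes.

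In dKO-19M all 10 values had the sign of the active lines, and the 8 genes raised in the active lines had a median log2 difference of 0.43, beside 0.00 for all genes, while in dKO-8M the median was 0.04. The shared sign rested on the first dKO-19M vehicle library: without it TNS4 was at -0.02, against the sign of the active lines, and PROC at -0.01. None of the 10 genes passed the adjusted threshold in either line. MGP, CYP4F8 and DHRS2 had intervals that left out 0 in both kinase-dead lines. DHRS2 levels were 27.6, 29.01 and 28.7 CPM under vehicle and 20.9, 21.8 and 19.4 CPM under SNX631 in dKO-8M, and 17.7, 16.5 and 17.5 against 11.3, 12.45 and 11.2 CPM in dKO-19M. The SNX631 libraries lay below all vehicle libraries in each line, with log2 differences of -0.45 (95% interval -0.74 to -0.16, edgeR FDR = 0.179) and -0.57 (-0.90 to -0.23, FDR = 0.0582). For MGP they were 0.35 (FDR = 0.156) and 0.26 (FDR = 0.123) by the same test, and for CYP4F8 0.36 (FDR = 0.426) and 1.07 (FDR = 0.25). The CYP4F8 value in dKO-19M exceeded the 0.83 of dKO-8, but it rested on 4 to 6 counts per vehicle library and 5 to 11 under SNX631. SLC9A2 in dKO-19M had 0.371, 0.395 and 0.409 CPM under vehicle and 0.479, 0.749 and 0.594 CPM under SNX631. Its libraries did not overlap, with a difference of 0.64 (95% interval -0.10 to 1.37). BANK1 overlapped there, at 0.57 (-0.18 to 1.32). The shares of all genes whose libraries did not overlap were 21.0% for dKO-8M and 15.5% for dKO-19M, and 4 and 3 of the 10 genes were among them.

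CERKL depended on 1 library in dKO-19M. Its vehicle levels were 0.520, 0.158 and 0.149 CPM, the highest being the library that stands apart, and its SNX631 levels 0.745, 0.468 and 0.411 CPM. The log2 difference was 0.93 with all libraries (95% interval 0.04 to 1.81, FDR = 0.296 in edgeR) and 1.76 without that library (FDR = 0.0897). The other 9 genes in dKO-19M had values of -0.55 to 0.92 without it, and 0 of 10 were called. The difference in drug effect between dKO-19M and dKO-8M was itself tested and was called for 0 of the 10 genes and 0 of all genes (0.00%). At an unadjusted p under 0.05 none of the 10 passed, and 1673 of all genes did. The widest of these values was that of CERKL, 1.30 (95% interval -0.12 to 2.71).

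Under vehicle, the kinase-dead lines can be set against their active partners, to see whether losing the kinase activity by mutation goes with the same levels as inhibiting it. The active libraries of these comparisons also entered the choice of the genes. The rule asked their vehicle levels to be below SNX631 for the raised genes and above it for DHRS2 and PROC. That favoured differences in the direction of the drug, so a shared direction is described and not read as support. The lines also differ in more than the kinase, as given above. Between dKO-8M and dKO-8, 5 of 10 genes were called (7.03% of all genes), and between dKO-19M and dKO-19, 7 of 10 (7.60%). EDN2 and PLCD4 were called higher and PROC lower in both kinase-dead lines, the direction of the drug. CYP4F8 was called lower in both, against that direction.

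EDN2 stood at 9.32 to 10.9 CPM in dKO-8M and 5.10 to 5.28 CPM in dKO-8 (log2 difference 0.95 ± 0.20 SE, edgeR FDR = 0.000354), and at 10.7 to 10.9 CPM in dKO-19M and 2.57 to 3.93 CPM in dKO-19 (1.62 ± 0.22, FDR = 1.67e-07). The vehicle level of the kinase-dead lines lay above that of their partners and below the SNX631 levels of dKO-8 (11.5 to 12.2 CPM) and dKO-19 (16.4 to 17.4 CPM). PLCD4 was higher by 0.68 ± 0.19 (FDR = 0.00402) in dKO-8M and 1.79 ± 0.22 (FDR = 1.09e-09) in dKO-19M, and its group means were 3.25 and 3.32 CPM in the kinase-dead lines against 2.02 and 0.948 CPM in their partners. PROC was lower, by -0.82 ± 0.21 (FDR = 0.0021) and -0.73 ± 0.20 (FDR = 0.00263), with 1.39 to 2.33 CPM in dKO-8M and 2.88 to 3.40 CPM in dKO-8.

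CYP4F8 showed the largest difference of the 10 genes. Its vehicle level was 2.84, 3.30 and 3.31 CPM in dKO-8M and 8.59, 8.71 and 8.79 CPM in dKO-8, and 0.148, 0.197 and 0.223 CPM in dKO-19M and 4.05, 3.80 and 4.85 CPM in dKO-19. Each kinase-dead group lay below its partner without overlap, by -1.47 ± 0.14 (edgeR FDR = 3.61e-13) and -4.45 ± 0.27 (FDR = 7.6e-21) on the log2 scale. SLC9A2 was lower in dKO-19M as well, at 0.371, 0.395 and 0.409 CPM against 2.12, 1.90 and 1.79 CPM in dKO-19 (-2.29 ± 0.28, FDR = 1.1e-09), while in dKO-8M its difference was 0.06 ± 0.32. SNX631 raised both of these genes in dKO-19, so their levels under the drug and under the mutation went apart.

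3 further genes were called in 1 kinase-dead line each. TNS4 was higher in dKO-8M (12.7, 12.2 and 13.4 CPM against 4.85, 4.55 and 5.45 CPM, 1.36 ± 0.13, FDR = 6.05e-13 in edgeR), MGP higher in dKO-19M (24.3, 21.5 and 19.0 CPM against 8.53, 7.96 and 7.90 CPM, 1.41 ± 0.11, FDR = 8.41e-17) and DHRS2 lower in dKO-19M (-0.80 ± 0.14, FDR = 2.97e-05). DHRS2 was -0.51 ± 0.13 in dKO-8M, with an FDR of 0.00286 but under 1.5-fold. Without the first dKO-19M vehicle library, 8 of 10 genes were called in the CDK19 pair, and the called values above ranged from -4.31 (CYP4F8) to 1.80 (PLCD4). The summed hepatocyte and endothelial markers stayed at or under 4.05 and 0.611 CPM in these vehicle libraries.

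**Figure D3:**
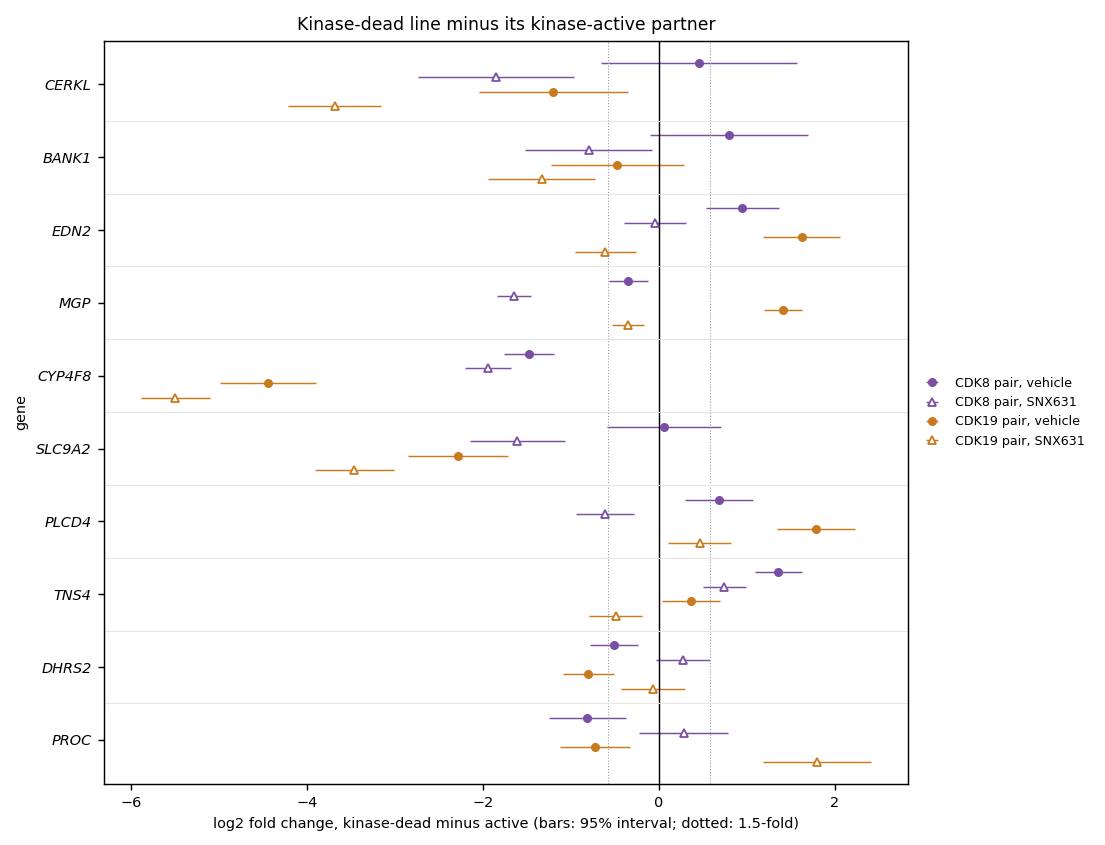
Log2 fold change of the kinase-dead line against its active partner for each gene, in the CDK8 pair (purple) and the CDK19 pair (orange), under vehicle (circles) and SNX631 (triangles), with 95% intervals and dotted lines at 1.5-fold. CYP4F8 lies far to the left in the CDK19 pair (-4.45 and -5.50), and EDN2 lies to the right under vehicle (0.95 and 1.62) and near or below 0 under SNX631 (-0.04 and -0.61).

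The kinase-dead against active difference was not the same for both kinases. It was tested as an interaction, and 5 of the 10 genes were called (8.40% of all genes). The dKO-8 and dKO-19 vehicle libraries in it also entered the choice of the genes. MGP was -0.35 in the CDK8 pair and 1.41 in the CDK19 pair (difference 1.76 ± 0.15, edgeR FDR = 2.4e-14), and PLCD4 was more raised in the CDK19 pair (1.11 ± 0.30, FDR = 0.00293), a call that was lost with libraries thinned to the smallest (0.73, FDR = 0.129). CYP4F8 (-2.97 ± 0.34, FDR = 3.49e-10), SLC9A2 (-2.34 ± 0.44, FDR = 1.97e-05) and TNS4 (-0.99 ± 0.21, FDR = 0.000176) were lower in the CDK19 pair relative to the CDK8 pair. Without the first dKO-19M vehicle library 6 of 10 were called, and these 5 values were 1.66, 1.12, -2.83, -2.31 and -0.81.

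With SNX631 on both sides, the kinase-dead and active lines differed in 6 of 10 genes in the CDK8 pair (5.05% of all genes) and 6 of 10 in the CDK19 pair (7.18%). The SNX631 libraries of the active lines are those in which the rule asked the 8 raised genes to be high and DHRS2 and PROC to be low. The rule thus favoured lower raised genes, and higher DHRS2 and PROC, in the kinase-dead lines. The calls and FDRs in those directions are given as a description and are not read as support. CERKL, CYP4F8 and SLC9A2 were lower in both kinase-dead lines, CERKL at 0.102 to 0.332 CPM in dKO-8M against 0.581 to 1.06 CPM in dKO-8 (-1.85 ± 0.43, edgeR FDR = 0.000762) and at 0.411 to 0.745 CPM in dKO-19M against 6.65 to 7.28 CPM in dKO-19 (-3.69 ± 0.26, FDR = 4.16e-18). EDN2 was level in the CDK8 pair (-0.04, 95% interval -0.39 to 0.31), and so was DHRS2 in the CDK19 pair (-0.06, -0.43 to 0.30). PROC was higher in dKO-19M (1.60, 2.15 and 2.15 CPM) than in dKO-19 (0.431, 0.558 and 0.718 CPM) by 1.80 ± 0.30 (FDR = 2.75e-06).

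The 2 kinase-dead lines took no part in the choice of the genes, and under vehicle 4 of the 10 differed between them (7.19% of all genes). CYP4F8 (-4.002 ± 0.28, edgeR FDR = 8.19e-18), TNS4 (-1.56 ± 0.13, FDR = 3.2e-15) and DHRS2 (-0.72 ± 0.14, FDR = 0.000109) were lower in dKO-19M than in dKO-8M, and MGP was higher (1.00 ± 0.10, FDR = 2.47e-12). EDN2 (0.11, 95% interval -0.25 to 0.46) and PLCD4 (0.04, -0.31 to 0.38) had close levels. Without the first dKO-19M vehicle library 4 of 10 were called. Between the active lines, dKO-19 against dKO-8, 5 of 10 were called (6.51%): CERKL (1.68 ± 0.47, FDR = 0.00366) and SLC9A2 (1.58 ± 0.27, FDR = 2.46e-06) were higher in dKO-19, and CYP4F8 (-1.03 ± 0.14), PLCD4 (-1.07 ± 0.25) and MGP (-0.76 ± 0.12) lower. The kinase and the line cannot be told apart in these comparisons. The dKO-8 and dKO-19 vehicle libraries also entered the choice of the genes.

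The medium was compared in the Rv1 lines, where TNS4 was lower in CSS than in FBS in both lines and under both treatments. Its vehicle level was 0.445, 0.868 and 0.466 CPM in CSS and 2.23, 2.68 and 3.57 CPM in FBS in Rv1-WT, and 0.809, 0.586 and 0.647 against 3.56, 1.97 and 2.27 CPM in Rv1-Luc. No library in CSS reached the lowest in FBS, and the log2 differences were -2.26 ± 0.29 (edgeR FDR = 2.07e-09) and -1.91 ± 0.24 (FDR = 2.9e-08), with -1.17 ± 0.18 (FDR = 3.67e-07) and -1.30 ± 0.16 (FDR = 8.06e-09) under SNX631. SNX631 in CSS gave TNS4 levels of 1.90 to 2.88 CPM in Rv1-WT, within or near the range of vehicle in FBS.

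Across the 4 medium comparisons, 3 of 10 genes were called in Rv1-WT under vehicle (10.9% of all genes), 2 under SNX631 (7.83%), and 3 each in Rv1-Luc under vehicle (1.49%) and SNX631 (1.51%). The libraries of these comparisons, and of the medium interaction below, also entered the choice of the genes, though the contrast of media did not. CYP4F8 was lower in CSS in Rv1-Luc, with 0.387, 0.406 and 0.555 CPM against 1.38, 0.838 and 0.999 CPM under vehicle (-1.27 ± 0.31, edgeR FDR = 0.00225), and -1.51 ± 0.18 (FDR = 3e-09) under SNX631. In Rv1-WT it was -0.93 ± 0.26 (FDR = 0.00267) under SNX631 and -0.65 ± 0.43 (FDR = 0.227) under vehicle. PROC was lower in CSS in Rv1-Luc under vehicle (2.53, 3.56 and 2.08 against 6.47, 3.69 and 5.77 CPM, -0.96 ± 0.18, FDR = 8.61e-05). The values of CERKL, BANK1, EDN2, SLC9A2 and PLCD4, from -1.17 to 0.50, did not pass the threshold in any of the 4.

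The difference between the media was itself compared between the 2 lines, and it differed for MGP and DHRS2. MGP under vehicle in Rv1-WT had 0.556, 0.372 and 0.155 CPM in CSS and 0.823, 1.14 and 1.43 CPM in FBS (-1.64 ± 0.42, edgeR FDR = 0.000856), and in Rv1-Luc 1.51, 1.80 and 1.29 CPM in CSS and 1.66, 0.755 and 0.772 CPM in FBS (0.51 ± 0.25, FDR = 0.19). The CSS libraries lay below FBS in Rv1-WT and overlapped it in Rv1-Luc, and the difference between the lines was 2.15 ± 0.49 (FDR = 0.000329). DHRS2 was higher in CSS in Rv1-WT (78.3 to 86.8 against 49.0 to 57.8 CPM, 0.63 ± 0.12, FDR = 7.6e-05) and -0.48 ± 0.15 (FDR = 0.0235) in Rv1-Luc, a difference of -1.11 ± 0.19 (FDR = 1.97e-05). With only the libraries of that comparison in the fit, the difference was -1.14 and the call was lost (FDR = 0.0282). These were the 2 of 10 genes called in this interaction (8.65% of all genes). The DHRS2 level under SNX631 was 15.9 to 17.7 CPM in FBS and 13.4 to 14.8 CPM in CSS in Rv1-WT, a difference of -0.23 ± 0.18 (FDR = 0.309).

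**Figure D4:**
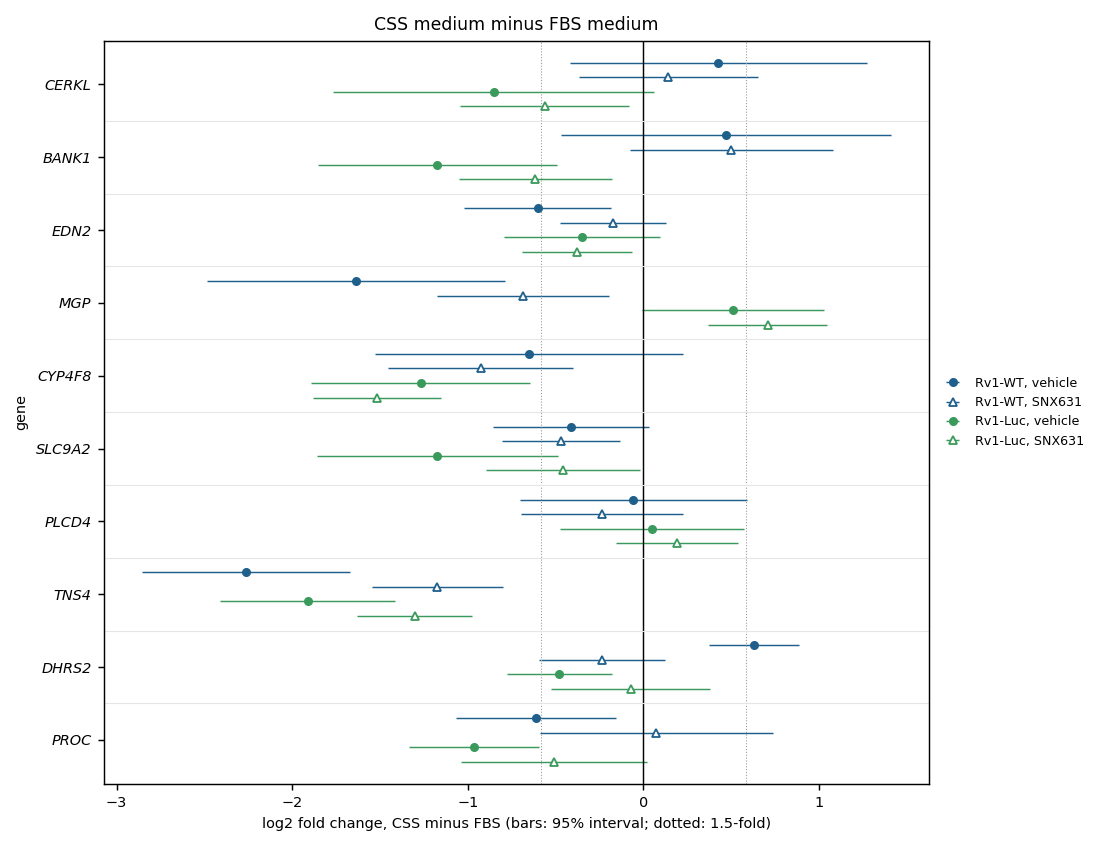
Log2 fold change of CSS against FBS for each gene in Rv1-WT (blue) and Rv1-Luc (green), under vehicle (circles) and SNX631 (triangles), with 95% intervals and dotted lines at 1.5-fold. TNS4 lies left of 0 in all 4 (-2.26 to -1.17), MGP lies left in Rv1-WT (-1.64 and -0.69) and right in Rv1-Luc (0.51 and 0.71), and PLCD4 lies near 0 (-0.24 to 0.19).

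The parental line and Rv1-Luc differed in 5 of the 10 genes under vehicle in FBS, beside 17.8% of all genes, and here a batch of libraries and the subline cannot be told apart. The libraries of this comparison also entered the choice of the genes. SLC9A2 (-1.66 ± 0.24, edgeR FDR = 4.92e-08), DHRS2 (-1.11 ± 0.14, FDR = 1.73e-08) and EDN2 (-0.86 ± 0.20, FDR = 0.00051) were lower in Rv1-Luc. BANK1 (1.42 ± 0.39, FDR = 0.00166) and PROC (0.62 ± 0.19, FDR = 0.00474) were higher. BANK1 is best known from B cells, and markers of B lineage cells moved with its level. The plasma cell list (JCHAIN, MZB1, IGHG1, IGKC and IGHM, 4 of 5 tested) summed to 3.43 to 27.8 CPM in Rv1-Luc libraries and at most 0.702 CPM in all others, and MS4A1 was at 0 outside Rv1-Luc, where it had 0.135 to 0.788 CPM. Under SNX631 the plasma cell sum of Rv1-Luc was lower in FBS (13.4 to 27.8 CPM under vehicle and 3.43 to 12.3 CPM under SNX631) and higher in CSS (3.68 to 4.40 and 6.75 to 21.8 CPM), while BANK1 was higher in both. In Rv1-WT, dKO-8 and dKO-19 BANK1 differed by 1.43 to 1.69 with that sum at or under 0.516 CPM. The part of these markers in the difference between Rv1-Luc and Rv1-WT was not tested.

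Among themselves the 10 genes did not share 1 pattern over the 8 vehicle groups, whose means of log2(CPM + 0.5) set the drug aside. The closest pairs were CERKL and SLC9A2 (Pearson r = 0.861, n = 8 groups), MGP and PLCD4 (0.795) and SLC9A2 and DHRS2 (0.774), and CERKL and PLCD4 were the most opposed (-0.742). Over all 16 groups, which share lines and treatments, the gene most like EDN2 of 14047 compared was TMPRSS2, a serine protease gene known for its androgen response (r = 0.963, Spearman rho = 0.968). TMPRSS2 was itself among the 49 genes that met the rule, with a mean log2 difference of 1.74 beside 1.70 for EDN2, so the rule favoured this likeness. CYP4F8 was most like ALOX15, a lipoxygenase gene (0.940), PLCD4 most like PLCH1, another phospholipase C (0.924), MGP most like GALR2 (0.969) and SLC9A2 most like PTGFR (0.929). For PLCD4 the next gene, GDNF, was close (r = 0.917) and had the higher Spearman rho, 0.871 beside 0.829 for PLCH1. The values of the other 5 genes with their nearest were 0.863 (PROC with ALKBH7) to 0.938 (TNS4 with HAUS6). These correlations are descriptions over groups and carry no p.

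The relatives of the 10 genes called the same way in 4 or more of the 6 settings were EDNRA, MME, F5, PLCL1 and DHRS3. Of all 20009 genes, 93 were called the same way in 5 of the 6 settings and 49 in all 6. The number at 4 settings was not computed, so the relatives are described and not read as more or fewer than other genes. EDNRA, the gene of a receptor for endothelins, was called higher in 5 of the 6 settings (log2 difference 0.91 to 2.49). Its 0.91 in dKO-8 was over 1.5-fold but missed the FDR limit. MME, whose protease degrades endothelins, was called higher in 5 (0.45 to 1.30). In the kinase-dead lines EDNRA was at 0.08 and 0.15 and MME at 0.17 and 0.23. These were 2 of 4 tested genes of the endothelin list, whose median was 0.35 to 0.72 in the 6 settings and 0.08 in each kinase-dead line. F5, the gene of coagulation factor V and a target of activated protein C, was called higher in the 4 Rv1 settings (1.01 to 1.36) and not in dKO-8 (0.46) or dKO-19 (-0.09), and it was the member of the protein C pathway list (5 tested, median -0.27 to 0.08) that met the naming rule.

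CYP4F3, the neighbour of CYP4F8, was called higher in 3 settings (0.68 to 3.25 over the 6) from a mean of 0.670 CPM, so a part of the reads of either gene may belong to the other. The cytochrome P450 family 4 list had a median of 0.68 to 2.13 in the 6 settings, over 5 tested genes with few counts. PLCL1 was called lower in 4 settings (-1.15 to -0.27), against the rise of PLCD4, and the 12 tested phospholipases C had a median of -0.16 to 0.01. DHRS3, a retinaldehyde reductase, was called lower in the 4 Rv1 settings (-0.88 to -0.64) beside DHRS2, and the 10 tested genes of that family had a median of -0.01 to 0.11. For the sodium-proton exchangers (10 tested), tensins and partners (8), ceramide and sphingosine enzymes (13) and B cell adaptor signalling (7), no relative was called the same way in 4 settings, and the medians were -0.31 to 0.18.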

How the data were processed

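Total RNA from 48 samples was sequenced as strand-specific libraries. The deposited table holds estimated counts per gene in 1 column per library, made by the authors with, per the submitters' processing notes, cutadapt 2.8, STAR 2.7.2b and featureCounts of Subread 2.0.3 on GRCh38.p13, unscaled. The annotation release is not given in the sources used here. Some values are fractional, as arises where a read is divided between places, and 81.6% of nonzero values are whole.

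Counts were rounded and the 2 transgene entries left out. filterByExpr of edgeR (minimum count 10, minimum total 15) left 20009 genes, all 10 described genes among them. Normalization was TMM (factors 0.911 to 1.07). A single edgeR quasi-likelihood fit (edgeR 4.0.16, limma 3.58.1, R 4.3.3, two-sided, robust) held a mean for each of 16 groups, with 32 residual degrees of freedom, no covariate and Benjamini-Hochberg adjustment within each of 22 comparisons. The biological coefficient of variation was 4.20%. Levels are TMM-scaled CPM. The SE of a difference is its absolute log2 value divided by the square root of the F statistic. The 95% intervals use this SE with a t quantile on the 32 residual degrees of freedom. Both are approximate. Low counts limit precision, and 3 counts per library were taken as the floor. Fits were tested on simulated data. All columns of per-library values were used.

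Coordinates and exon lengths are from a GENCODE annotation of GRCh38, matched by gene identifier, and start-site windows from RefSeq on GRCh38.p14. The 10 genes, the comparisons and the lists of relatives and markers were chosen with earlier results of these data known. Besides the 10 genes, list genes called the same way in at least 4 of 6 settings, the gene most like each member, the values nearest the fold limit and the targeted kinases were named. Alternatives were DESeq2 (1.42.0), DESeq2 size factors in edgeR, library size only, no filter, only the libraries of a comparison, a replicate block, thinning to the smallest library, unrounded counts and leaving out each library in turn. Parts of the marker lists and of the motif search are not reported here.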

Additional observations from a re-analysis of the deposited data

Results flagged for a closer look

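For 7 values the same contrast differed between 2 lines or kinases in a tested interaction. Vehicle libraries of kinase-active settings in these interactions also entered the choice of the genes. The CSS effect under vehicle, taken as Rv1-Luc minus Rv1-WT on the log2 scale, was 2.15 for MGP and -1.11 for DHRS2, the latter not called (FDR = 0.0282) with only the libraries of that comparison in the fit. The difference between the kinase-dead and the active line under vehicle was higher in the CDK19 pair than in the CDK8 pair for MGP (1.76) and PLCD4 (1.11, but 0.73 and FDR = 0.129 in edgeR with libraries thinned to the smallest), and lower for CYP4F8 (-2.97), SLC9A2 (-2.34) and TNS4 (-0.99).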

How the results depend on the processing

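The 10 genes were called in all 6 kinase-active settings under 6 of the 8 alternatives other than leaving out a library. Thinning to the smallest library gave 9 genes (BANK1 lost in dKO-8), and fitting only the libraries of each comparison gave 8 (EDN2 and DHRS2 lost in Rv1-Luc in FBS). Leaving out 1 library gave 8 to 10 genes, with 52 of 60 values past the threshold in every such fit. BANK1 in dKO-8 lost its call in 5 of 6 such fits. BANK1 in Rv1-WT in FBS, and CYP4F8 and PROC in Rv1-WT in CSS, lost it in 3 of 6. MGP in Rv1-WT in FBS and PLCD4 in Rv1-WT in either medium lost it in 2 of 6, and CERKL in dKO-8 in 1 of 6. In dKO-8M and dKO-19M, 0 of the 10 genes were called under every alternative run, with edgeR and with DESeq2. The count over all genes ranged from 0 to 14 in dKO-8M (3 as reported, 0 or 1 without any 1 of its libraries) and from 1 to 32 in dKO-19M (18 as reported, 9 without vehicle replicate 1 and 7 without SNX631 replicate 3). In their interaction it was 0 as reported, 8 without a filter and 5 without dKO-19M SNX631 replicate 1. With only the libraries of the comparison, the CSS counts over all genes in Rv1-Luc went from 298 to 198 under vehicle and from 303 to 184 under SNX631.

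Fitting only the libraries of the comparison gave 5 called members for CSS in Rv1-WT under vehicle, 1 for CSS in Rv1-Luc under vehicle, 3 for Rv1-Luc against Rv1-WT and 1 for the CSS interaction, and thinning gave 3 for dKO-19 against dKO-8. The genes lost with only those libraries were DHRS2 (-1.08) and PROC (0.65) in Rv1-Luc against Rv1-WT, DHRS2 (-1.14) in the CSS interaction, and CYP4F8 (-1.27) and PROC (-0.98) for CSS in Rv1-Luc under vehicle. Thinning lost CERKL (1.32) and PLCD4 (-0.75) in dKO-19 against dKO-8, PLCD4 in the interaction of the kinase pairs (0.73), PROC under vehicle (-0.58) and EDN2 under SNX631 (-0.56) in dKO-19M against dKO-19, BANK1 in Rv1-Luc against Rv1-WT (1.03), and CYP4F8 under vehicle (-1.39) and MGP under SNX631 (0.59) for CSS in Rv1-Luc. Leaving out 1 library gave 1 to 3 for CSS in Rv1-WT under SNX631 (1 without FBS SNX631 replicate 3 or CSS SNX631 replicate 1), 2 to 5 for CSS in Rv1-Luc under vehicle (5 without FBS vehicle replicate 2), 3 to 5 for dKO-8M against dKO-8 under vehicle (3 without dKO-8 replicate 2) and 3 to 5 for Rv1-Luc against Rv1-WT (3 without Rv1-Luc replicate 3). The cause was not tested.

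No called member value changed sign under any alternative run. Values near 0 in the kinase-dead lines did: PROC in dKO-8M was -0.00125 with DESeq2 size factors, -0.00913 with library size only and -0.00305 with DESeq2. Over the fits without 1 library, dKO-8M values ran from -0.121 to 0.260 for PROC, -0.245 to 0.0376 for BANK1, -0.365 to 0.0266 for SLC9A2 and -0.0854 to 0.153 for PLCD4, and TNS4 in dKO-19M from -0.0233 to 0.266.

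Several calls in tested comparisons were lost without a single library, as follows. EDN2 in dKO-19M against dKO-19 under SNX631 was lost without any 1 of the 6 (-0.64 to -0.58), and CERKL in dKO-19 against dKO-8 without any dKO-8 library (1.56 to 1.85) or dKO-19 replicate 2 (1.31). MGP for CSS in Rv1-WT was lost without FBS or CSS replicate 3 (-1.44 and -1.25), DHRS2 without FBS replicate 1 (0.57), and CYP4F8 under SNX631 without FBS replicate 1 or 3 (-0.72 and -0.84) or CSS replicate 1 (-0.83). In Rv1-Luc, CYP4F8 for CSS under vehicle was lost without FBS replicate 1 (-1.04) or CSS replicate 1 or 2 (-1.16 and -1.22), and MGP under SNX631 without replicate 3 of FBS (0.61) or CSS (0.60). For dKO-8M against dKO-8 under vehicle, PLCD4 was lost without dKO-8 replicate 2 or 3 (0.61 and 0.62) or dKO-8M replicate 2 (0.55), and PROC without dKO-8 replicate 2 (-0.75) or dKO-8M replicate 1 or 3 (-0.69 and -0.71). Under SNX631, CERKL was lost without dKO-8 replicate 1 (-1.53) or dKO-8M replicate 3 (-1.58), and PLCD4 without dKO-8 or dKO-8M replicate 2 (-0.57 and -0.63) or dKO-8M replicate 3 (-0.57). PROC in dKO-19M against dKO-19 was lost without dKO-19 replicate 3 (-0.65) or dKO-19M replicate 2 or 3 (-0.62 and -0.67). For Rv1-Luc against Rv1-WT, BANK1 was lost without Rv1-WT replicate 1 or 2 (1.36 and 1.26) or Rv1-Luc replicate 3 (1.08), and PROC without Rv1-WT replicate 3 (0.47) or Rv1-Luc replicate 1 or 3 (0.44 and 0.55). PLCD4 in the interaction of the kinase pairs was lost without replicate 1 of dKO-8 (0.97), dKO-8M (1.00) or dKO-19 (0.99) or replicate 2 of dKO-19 (1.01).

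The labels number the replicates alike in every group, but the numbers gave no clear sign of pairing. In 0 of 19 comparisons did all 3 same-numbered pairs have deviations correlated over 0.1 (range -0.0935 to 0.296). SNX631 in dKO-19M came nearest, with 0.296, 0.145 and 0.083, and a weak pairing could be missed by this limit. With a replicate block the count of called members was 4 in place of 3 for CSS in Rv1-WT under vehicle and the same in the other comparisons. BANK1, CERKL, CYP4F8 and PLCD4 rested on few counts in many groups, which limits the differences that could be detected in them.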

Other observations

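Relatives of the 10 genes also differed between lines and media, in comparisons other than those of the drug. MME was higher in both kinase-dead lines than in their active partners under vehicle (2.10 in dKO-8M and 2.23 in dKO-19M, log2 scale) and lower in Rv1-Luc than in Rv1-WT (-2.36), and EDNRA was higher in CSS than in FBS in Rv1-WT (1.24). In dKO-19M against dKO-19, TNS3, the gene of another tensin, was higher (1.84), as was the sodium-proton exchanger gene SLC9A5 (1.57), and the phospholipase C gene PLCE1 lower (-2.21), all under vehicle. CYP4F3 was lower there by -1.84 under vehicle and -3.71 under SNX631, beside CYP4F8 at -4.45 and -5.50. CERK, the gene of ceramide kinase, differed between the kinase pairs by 2.24 and PROS1, the gene of protein S, by -1.62. All of these passed the same threshold, in edgeR at FDR under 0.01 and over 1.5-fold.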
